A study of Homo sapiens with 18 samples.

Results

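The cells described here are foregut endoderm, exposed to retinoic acid and followed over 72 h with CHIR99021 and BMP4. They were chosen by their labels alone: the 3 libraries of the starting cells (day 6, after retinoic acid) and the 3 libraries of their product (day 9), 6 of the 18 libraries in the series. Every library came from wt Human H1 ESCs, an established human line, differentiated to foregut endoderm and profiled by bulk RNA-seq of poly(A) RNA. The starting cells had received all-trans retinoic acid (RA) at 2 µM for 24 h, ending on day 6. The product had received the same RA pulse, then CHIR99021 at 2 µM, an inhibitor of the kinase GSK3 that raises Wnt/β-catenin signalling, together with the ligand BMP4 at 50 ng/mL for 72 h. A further 3 groups of 3 libraries are set beside them: day 9 cells given the RA pulse and neither agent (called RA-only day 9 cells below), untreated day 6 cells, and day 9 cells given CHIR99021 and BMP4 without RA. All cells come from a single line, and the labels leave unsaid whether a group's libraries came from separate cultures, and the p-values cover no more than the scatter among these libraries, which may be technical.

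In the embryo the lung and trachea bud from the ventral foregut, where mesoderm beside the gut secretes Wnt and BMP ligands and the endoderm switches on the transcription factor NKX2-1. Retinoic acid acts earlier, both on the endoderm and on the mesoderm beside it, and gives the foregut the competence to answer those signals. It works through nuclear receptors that bind DNA directly, and switches on HOX genes and the enzymes that break retinoic acid down.

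The 6 libraries held between 6.75 M and 19.69 M counts (M, 10 to the power of 6). Levels are counts scaled to a total of 1 M (CPM) after library scaling, and n = 3 in every group. The 4 marker genes given for these cells separated the groups. NKX2-1 and SHH were higher in every library of the product than in every library of the starting cells, and IGF2 and HOXB1 lower. General endoderm genes were present in both: EPCAM, an epithelial adhesion protein, stood at 428, 436 and 406 CPM in the starting cells and at 371, 353 and 363 CPM in the product. FOXA2, the pioneer factor of all gut endoderm, stood at 226, 239 and 239 CPM and then at 170, 175 and 169 CPM. The genes of mature lung epithelium were not: SFTPB, SFTPC and SCGB3A2 had 0 reads in the 3 product libraries. Reads of pseudogenes held 1.60% to 1.63% of counts in the starting cells and 2.17% to 2.25% in the product, and mitochondrially encoded genes 5.52% to 5.99% and 6.24% to 6.88%. The part of either in the results was not tested.

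Between the starting cells and the product, 8039 of 15531 tested genes (51.8%) were called, that is, had an adjusted p below 0.05 in edgeR's quasi-likelihood test with Benjamini-Hochberg adjustment, which is behind every adjusted p given here. Of these, 3892 (25.1%) rose and 4147 (26.7%) fell. At a fold of at least 2, 826 genes (5.32%) rose and 1520 (9.79%) fell. The libraries of the groups did not overlap for 9962 genes (64.1%), so a lack of overlap by itself is the common case. Day and agents change together in this comparison. The same 72 h without the agents (RA-only day 9 against day 6) called 9128 genes (58.8%), of which 4423 (28.5%) rose and 4705 (30.3%) fell. The agents alone (product against RA-only day 9) called 10004 (64.4%), of which 4987 (32.1%) were higher and 5017 (32.3%) lower. The first of these shares its day 6 libraries with the main comparison, and the second is the direct test of whether the 72 h change differed with the agents. The counts given below for gene lists are to be read beside the shares of all tested genes in the same comparison. Because RNA came from whole cultures, fewer cells of a type and less RNA per cell cannot be told apart.

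**Figure D1:**
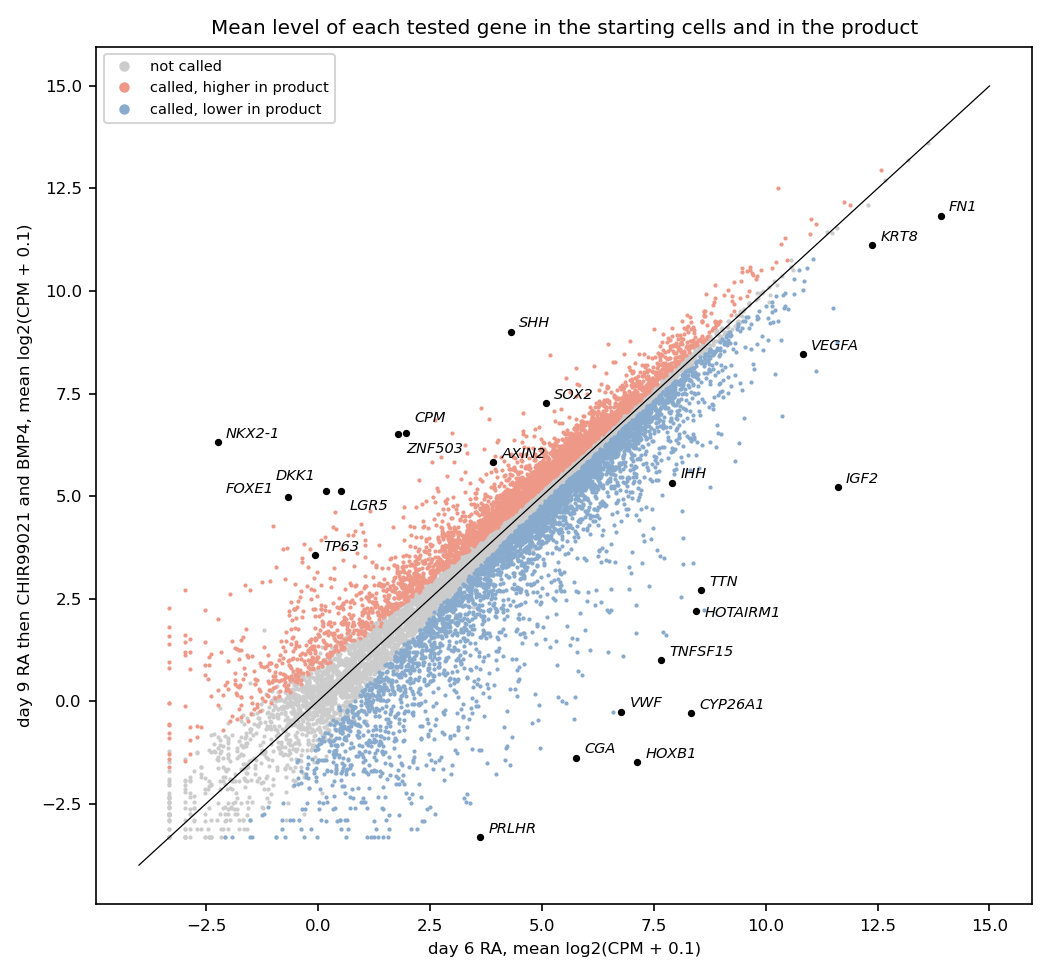
Mean level of each of the 15531 tested genes in the starting cells (x axis) and in the product (y axis), both as log2(CPM + 0.1), with called genes in colour and the line of equal levels in black. NKX2-1 and SHH lie far above the line, and HOXB1, CYP26A1, TNFSF15 and IGF2 far below it.

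The respiratory genes rose from very different starting points. NKX2-1 (GRCh38 chromosome 14, 36516399 to 36519556), the earliest marker of the respiratory and thyroid domains, went from near absence to a mid-range transcript. It had 3 counts in all in the starting cells (0.110, 0.0817 and 0.142 CPM) and 3070 in the product (81.3, 86.7 and 69.7 CPM). The ratio was 761, with a 95% counting interval of 260 to 3694 that covers counting error only, and the adjusted p was 2.11e-17. In RA-only day 9 cells NKX2-1 had 4 counts, so the product stood above both. SFTA3, whose gene lies beside NKX2-1 on chromosome 14, had 0 reads in the starting cells and in RA-only day 9 cells, and 4.35, 5.22 and 4.69 CPM in the product. With the starting cells set to 3 counts over the group, that is at least 43.9-fold higher (adjusted p = 5.85e-08). SHH (chromosome 7, 155799980 to 155809163), the Hedgehog ligand that the lung epithelium sends to the mesenchyme, rose from 20.3, 20.5 and 18.4 CPM to 489, 500 and 558 CPM. Its log2 fold change was 4.70 ± 0.54 (standard error, SE; adjusted p = 9.45e-06). RA-only day 9 cells held 50.5, 24.1 and 26.8 CPM of SHH, below every product library.

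Per transcript length, in the deposited TPM (transcripts scaled to a total of 1 M per library), SHH was the more abundant of these: its mean of 474.5 TPM in the product ranked 166 among the tested genes, against 52.9 TPM and rank 2442 for NKX2-1. SOX2, a transcription factor of the foregut that is kept high in its dorsal, oesophageal side, stood between them in rank at 233.

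The Iroquois factors IRX1, IRX2, IRX3 and IRX5, homeobox genes expressed in early lung epithelium, all rose. IRX3 stood at 9.82, 8.58 and 11.3 CPM in the starting cells, 4.65, 3.03 and 3.44 CPM in RA-only day 9 cells and 69.0, 69.4 and 59.3 CPM in the product. The product was the highest of the 3 groups with no overlap, and its log2 fold change over the starting cells was 2.76 ± 0.18 (adjusted p = 4.89e-11). IRX5 went from 5.52, 4.25 and 5.95 CPM to 30.5, 30.7 and 27.2 CPM, a log2 fold change of 2.52. IRX1 and IRX2 rose by 2.99 and 1.41 on the log2 scale. The gene for carboxypeptidase M, a surface enzyme used to sort human lung progenitors (its symbol, CPM, is also the unit here), stood at 3.75, 3.92 and 3.82 units in the starting cells and at 102, 105 and 73.6 in the product. Its log2 fold change was 4.61 ± 0.31 (adjusted p = 7.27e-09). GRHL2, a factor that maintains epithelial junctions in the lung, rose by 0.69, from 77.5, 69.4 and 64.1 CPM to 109, 113 and 119 CPM.

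Of the 28 tested genes in the respiratory and early lung list (32 listed), 13 rose (46.4%), 9 fell (32.1%) and 6 were not called. Over all tested genes 25.1% rose and 26.7% fell. The list had a median log2 fold change of 0.57 against 0.00 over all tested genes. The list did not move as a block. ETV5, a transcriptional target of FGF signalling in the lung bud tip, was called lower (7.84, 9.24 and 9.77 CPM, then 7.99, 4.22 and 5.10 CPM; log2 fold change -0.53), although the groups overlap. The call is lost without replicate 2 or 3 of the starting cells or without replicate 2 or 3 of the product (adjusted p = 0.0809 to 0.132). CLDN18, a claudin of lung and stomach epithelium, fell from 3.31, 3.27 and 2.41 CPM to 0.239, 0.201 and 0.276 CPM. FOXP2 (log2 difference 0.40, adjusted p = 0.305) and SOX9, a marker of the distal lung tip (0.51, adjusted p = 0.127), did not pass the test, SOX9 passing without replicate 3 of the starting cells (adjusted p = 0.0256). The summed level of the list was 2565 to 2666 CPM in the starting cells and 2540 to 2676 CPM in the product. GPC3 had the most counts of the list in both groups, 51805 over the starting libraries and 38946 over the product libraries (unscaled). The sum thus weighs GPC3 above the other members, and the rise of NKX2-1 and its companions does not show in it.

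**Figure D2:**
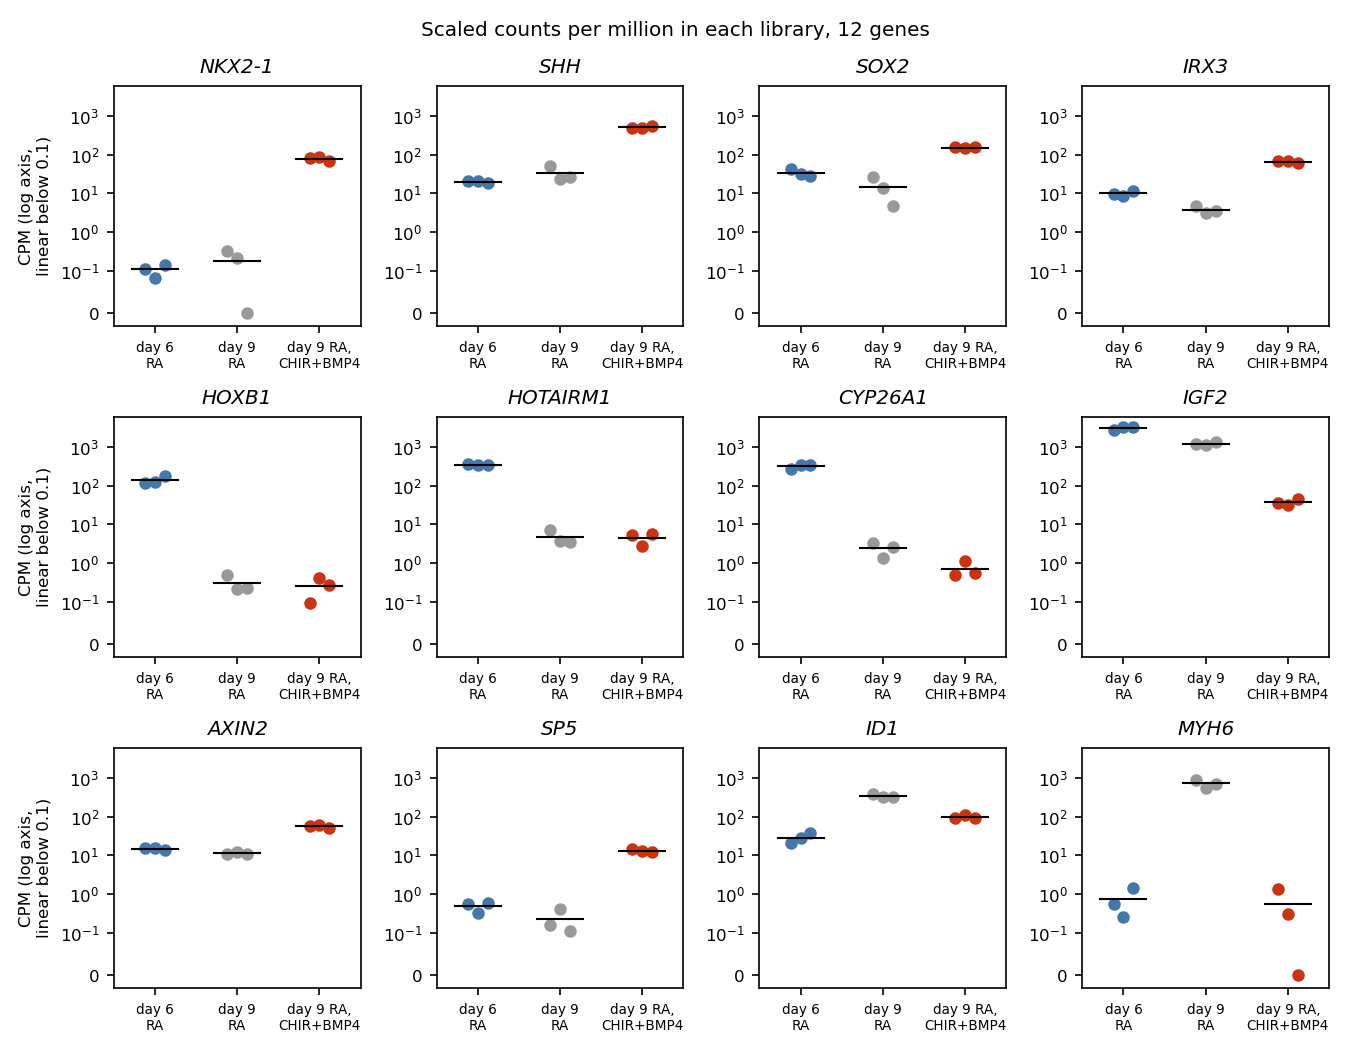
CPM of 12 genes in each library of the starting cells, RA-only day 9 cells and the product (points, 3 libraries a group; bars, group means), on a log axis that is linear below 0.1. NKX2-1, SHH, SOX2, IRX3, AXIN2 and SP5 are highest in the product, HOXB1, HOTAIRM1 and CYP26A1 are low in both day 9 groups, and MYH6 is high only in the RA-only day 9 libraries among those plotted.

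In the Hedgehog pathway the ligands changed places. IHH, the other Hedgehog ligand of gut endoderm, fell from 221, 252 and 252 CPM to 37.2, 47.4 and 35.8 CPM (log2 fold change -2.59 ± 0.31, adjusted p = 1.19e-05) while SHH rose. IHH fell further without the agents, to 24.4, 17.6 and 8.44 CPM, and the difference between the day 9 groups was called (adjusted p = 0.0067). Of the genes that a cell switches on when it receives Hedgehog, PTCH1, the receptor and itself a target, rose from 180, 153 and 134 CPM to 350, 338 and 365 CPM. GLI1, the transcription factor most directly induced by the pathway, rose by 1.78 on the log2 scale, from 6.95, 5.89 and 8.07 CPM to 22.1, 21.8 and 27.2 CPM. No product library overlapped a starting library for either gene. HHIP, a further target that binds and removes the ligand, had 11.4, 8.17 and 8.78 CPM and then 8.80, 8.74 and 8.41 CPM (log2 difference -0.12, adjusted p = 0.833). Over the 16 tested pathway genes, 8 rose (50.0%) and 6 fell (37.5%), against 25.1% and 26.7% of all tested genes. FOXF1, a forkhead factor of the mesoderm next to the gut tube that answers Hedgehog, had 3 counts in the 3 starting libraries and 9 in the product, too few to be tested.

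Most of the HOX and retinoid genes tested were lower in the product than in the starting cells. HOXB1 (chromosome 17, 48528526 to 48531011), an immediate target of RA in the embryo, stood at 118, 125 and 178 CPM on day 6 and at 0.0956, 0.402 and 0.276 CPM in the product, 627-fold lower (log2 fold change -9.29 ± 0.28, adjusted p = 6.65e-14). In RA-only day 9 cells it was at 0.481, 0.209 and 0.222 CPM, and the difference between the day 9 groups was not called (adjusted p = 0.71). HOTAIRM1, a non-coding RNA of the HOXA cluster, fell from 362, 342 and 337 CPM to 5.31, 2.71 and 5.51 CPM, with 7.22, 3.65 and 3.44 CPM in RA-only day 9 cells. Both genes thus reached a low level with or without CHIR99021 and BMP4.

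HOXB2 fell less and differed between the day 9 groups. It went from 56.1, 53.6 and 57.9 CPM to 6.12, 5.22 and 7.17 CPM in the product, against 25.8, 11.1 and 13.4 CPM in RA-only day 9 cells (adjusted p = 8.3e-05 between them, and 0.0776 with limma on log2(TPM + 0.1)). HOXA3 was low throughout and was not called (log2 difference 0.00, adjusted p = 0.993). HOXC4, the gene at the 3′ end of the HOXC cluster, rose from 1.77, 1.06 and 1.27 CPM to 5.26, 4.12 and 5.79 CPM. Of 21 listed HOX genes of the 3′ and central parts of the clusters, HOTAIRM1 included, 8 were tested, 6 fell and 1 rose. These are 75.0% and 12.5% of those tested, against 26.7% and 25.1% of all tested genes. HOXB4 had 35 counts over the starting libraries and 19 over the product libraries and was not tested.

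CYP26A1 and CYP26B1, which clear retinoic acid, fell. CYP26A1, the main RA-degrading enzyme and a direct RA target, went from 278, 338 and 347 CPM to 0.478, 1.10 and 0.551 CPM (log2 fold change -8.90 ± 0.31, adjusted p = 5e-12). RA-only day 9 cells kept 3.37, 1.36 and 2.56 CPM, above the product in every library (adjusted p = 0.020). That call is lost without replicate 1 or 3 of the RA-only day 9 cells or replicate 1 of the product (adjusted p = 0.0687 to 0.109). CYP26B1, its close relative, went from 11.3, 10.5 and 15.6 CPM to 0.383, 0.502 and 0.138 CPM. DHRS3, which turns retinaldehyde back into retinol, fell by only 1.49 on the log2 scale, from 209, 203 and 204 CPM to 76.0, 69.1 and 74.3 CPM, and RARB, the receptor gene that RA induces, by 2.00, from 176, 171 and 166 CPM to 44.7, 41.5 and 42.0 CPM. Between the day 9 groups RARB was not called (log2 difference -0.07, adjusted p = 0.63), whereas DHRS3 was higher in the product than in RA-only day 9 cells (0.67, adjusted p = 1.8e-06). The enzymes that make retinoic acid moved in both directions. ALDH1A1 rose from 0.221, 0 and 0 CPM to 1.63, 2.51 and 3.72 CPM, a ratio of 32.0 with a 95% counting interval of 8.59 to 268, and ALDH1A3 fell from 3.53, 3.43 and 4.11 CPM to 0.335, 0.502 and 0.413 CPM. In the whole list of 24 tested retinoid genes, 14 fell (58.3%) and 5 rose (20.8%), with a median log2 fold change of -1.23. Over all tested genes 26.7% fell and 25.1% rose.

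Retinoic acid receptors bind paired half-sites. The DR5 form, the half-site GNTCA repeated with 6 letters between the copies, was searched on both strands in the 250 bases before each RefSeq gene start (GRCh38.p14). It was found in 0.584% of the 35116 windows, in 1 of 2 windows of CYP26A1 and in 1 of 4 of RARB. The matching windows are shown because both genes are induced by RA and fell, and capitals mark the matched letters, on the minus strand for CYP26A1.
CYP26A1 (chr10:93073643-93073892, plus strand): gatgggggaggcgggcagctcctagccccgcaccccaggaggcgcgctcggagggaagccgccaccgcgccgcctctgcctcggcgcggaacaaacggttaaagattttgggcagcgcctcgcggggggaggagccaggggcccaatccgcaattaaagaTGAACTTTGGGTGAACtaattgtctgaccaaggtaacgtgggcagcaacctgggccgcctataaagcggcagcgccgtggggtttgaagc
RARB (chr3:25428013-25428262, plus strand): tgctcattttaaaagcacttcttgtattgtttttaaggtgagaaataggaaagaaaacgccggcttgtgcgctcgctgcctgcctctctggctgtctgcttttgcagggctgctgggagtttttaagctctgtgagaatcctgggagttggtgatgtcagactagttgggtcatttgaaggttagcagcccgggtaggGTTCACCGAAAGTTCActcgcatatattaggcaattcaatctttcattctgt
The matches lie 74 and 36 bases before the RefSeq start that each window precedes. The search was added after the levels had been seen. A match is a description of these letters and not a measurement of binding. The windows of DHRS3, HOXB1, CYP26B1, RARA and RARG held no such match.

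Most of the Wnt targets tested rose. AXIN2, a negative regulator that Wnt signalling induces in nearly every tissue, stood at 15.7, 15.4 and 13.9 CPM in the starting cells, 11.1, 11.9 and 10.8 CPM in RA-only day 9 cells and 57.7, 59.8 and 51.7 CPM in the product. The product was highest with no overlap (log2 fold change over the starting cells 1.91 ± 0.10, adjusted p = 6.56e-13). NKD1, another induced inhibitor of the pathway, rose from 9.60, 9.81 and 9.34 CPM to 81.4, 75.1 and 69.5 CPM (2.98 on the log2 scale). LEF1, the DNA-binding partner of β-catenin, rose by 3.30, from 1.21, 1.23 and 1.56 CPM to 12.5, 12.1 and 14.6 CPM. LGR5, the R-spondin receptor of many stem cells, went from 1.10, 1.06 and 1.84 CPM to 36.4, 32.4 and 35.0 CPM. SP5, a transcription factor induced directly by β-catenin, went from 0.552, 0.327 and 0.566 CPM to 14.2, 13.1 and 12 CPM. In RA-only day 9 cells LGR5 stood at 2.73, 2.09 and 0.889 CPM and SP5 at 0.160, 0.418 and 0.111 CPM, and neither was called against the starting cells (adjusted p = 0.46 and 0.55).

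DKK1, a secreted Wnt inhibitor and target, behaved otherwise: it rose with or without the agents. It stood at 0.772, 0.899 and 1.42 CPM on day 6, at 41.1, 43.1 and 23.8 CPM in RA-only day 9 cells and at 32.8, 41.1 and 30.7 CPM in the product, and the day 9 groups overlapped (adjusted p = 0.90). RNF43, a target that removes Wnt receptors, was not called between product and start (log2 difference 0.07, adjusted p = 0.763). Of 22 tested Wnt targets, 14 rose (63.6%), 5 fell (22.7%) and 3 were not called, with a median log2 fold change of 1.38. Ligands, receptors and secreted antagonists showed the opposite count: of 28 tested, 11 fell (39.3%) and 2 rose (7.1%). Over all tested genes 25.1% rose and 26.7% fell. The antagonists SFRP1, SFRP5 and FRZB, which bind Wnt proteins outside the cell, fell from 221 to 294, 116 to 140 and 46.9 to 55.4 CPM to 51.0 to 61.1, 7.41 to 10.2 and 11 to 15.4 CPM. FZD1, a Wnt receptor, rose by 1 on the log2 scale.

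The letters CTTTGAT, the core that TCF and LEF factors recognise, were searched on both strands in the same windows and occur in 2.26% of them. Of the 4 Wnt targets searched that have a window, SP5 held a match, 102 bases before the gene start and marked in capitals, and it is shown because SP5 rose after RA with the agents and was not called without them.
SP5 (chr2:170715087-170715336, plus strand): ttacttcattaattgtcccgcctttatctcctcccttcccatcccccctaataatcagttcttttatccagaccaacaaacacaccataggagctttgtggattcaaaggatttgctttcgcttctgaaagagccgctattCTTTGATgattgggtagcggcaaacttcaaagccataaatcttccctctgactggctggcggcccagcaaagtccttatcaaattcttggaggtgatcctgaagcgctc
The windows of LEF1, DKK1 and TNFRSF19 held none, nor did those of NKX2-1 and SHH, and nothing follows from that about the factors. The letters GGCGCC (BMP) and CAGAC (SMAD) were searched too, and occur in 16.4% and 38.0% of all windows. No window of ID1, ID2, ID3, ID4, SMAD7, SMAD9 or MSX2 held GGCGCC, whereas a window of NKX2-1 did. CAGAC was found for ID3, ID4 and SMAD7, and not for ID1, ID2, SMAD9 or MSX2.

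Among the 21 tested BMP targets 11 rose (52.4%) and 5 fell (23.8%) against the starting cells, where 25.1% and 26.7% of all tested genes did. For several of these targets the product was not the highest group. ID1, the prototype of the family of BMP-induced inhibitors of differentiation factors, stood at 21.4, 27.6 and 37.4 CPM in the starting cells, 94.8, 112 and 90.4 CPM in the product given BMP4, and 398, 329 and 331 CPM in RA-only day 9 cells given none. The rise over the starting cells was 1.80 ± 0.22 on the log2 scale (adjusted p = 1.03e-05), and the product was below RA-only day 9 cells in every library (log2 difference -1.83, adjusted p = 1.7e-06). ID2 followed the same order, with 13.1, 13.5 and 15.1 CPM, then 117, 131 and 108 CPM in the product and 229, 227 and 217 CPM in RA-only day 9 cells. So did ID3, with 44.3, 52.8 and 65.8 CPM, then 95.5, 97.3 and 96.8 CPM and 460, 434 and 506 CPM. SMAD7, an inhibitory SMAD that the pathway induces, rose by 1.25 and SMAD9, a BMP receptor-activated SMAD, by 1.80 on the log2 scale over the starting cells.

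SMAD6, the inhibitory SMAD most specific to BMP, was slightly lower in the product than at the start. It had 32.0, 36.8 and 37.1 CPM on day 6, 25.6, 28.3 and 28.4 CPM in the product and 197, 226 and 256 CPM in RA-only day 9 cells. The fall from day 6 was called at an adjusted p of 0.0287. The call is lost without replicate 2 or 3 of the starting cells or replicate 1 of the product (adjusted p = 0.0811 to 0.118). BAMBI, a decoy receptor induced by BMP, had 35.5, 40.3 and 40.8 CPM, then 56.4, 66.2 and 54.4 CPM, a log2 difference of 0.60 that did not pass (adjusted p = 0.0581) but did with DESeq2 (adjusted p = 0.0284). RA-only day 9 cells had 482, 383 and 309 CPM. MSX2 rose by 2.53 over the starting cells, and MSX1 was not called (0.37, adjusted p = 0.379). Against RA-only day 9 cells 2 of the 21 were higher and 16 lower, where the background was 32.1% higher and 32.3% lower. Markers of cardiac muscle moved with this difference: their summed level was 4355 to 6058 CPM in RA-only day 9 cells and 46.0 to 49.6 CPM in the product, and the part of those cells in the BMP target levels was not tested.

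Of 25 tested BMP ligands, receptors and antagonists, 10 rose (40.0%) and 6 fell (24.0%), against 25.1% and 26.7% of all tested genes. BMP4, measured as the cells' own transcript, fell from 121, 113 and 122 CPM to 38.7, 41.8 and 32.3 CPM, and BMP2 from 127, 116 and 127 CPM to 9.13, 11 and 8.54 CPM. BMP2 stood at 216, 335 and 331 CPM in RA-only day 9 cells, and the difference between the day 9 groups was -4.94 on the log2 scale (adjusted p = 3.8e-09). Among antagonists, NBL1, a secreted BMP binder, rose from 13.5, 19.1 and 16.0 CPM to 88.4, 75.1 and 82.1 CPM, NOG from 0.331, 0.0817 and 0.283 CPM to 1.63, 3.01 and 1.65 CPM, and SOSTDC1 by 2.87 on the log2 scale.

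IGF2 (chromosome 11, 2129117 to 2140943), the imprinted fetal growth factor, ranked 57 by TPM among the tested genes in the starting cells and 8298 in the product. It stood at 2703, 3277 and 3375 CPM on day 6, at 1201, 1126 and 1322 CPM in RA-only day 9 cells and at 35.9, 30.7 and 44.1 CPM in the product. The groups did not overlap, and the log2 fold change from start to product was -6.41 ± 0.26 (adjusted p = 7.51e-11). Without the agents the change was -1.36 on the log2 scale, and the difference between the day 9 groups was -5.05 (adjusted p = 2.5e-10). H19, the non-coding RNA of the same imprinted domain, was far lower in level but fell too, from 4.19, 3.19 and 2.83 CPM to 0, 0 and 0.138 CPM. Its product libraries held 1 count, and the ratio was 130, with a counting interval of 22.9 to 5203.

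Other parts of the IGF axis fell with it. IGFBP5, a secreted IGF-binding protein, went from 3108, 3304 and 2844 CPM to 423, 402 and 472 CPM, and IGFBP6, which prefers IGF2, from 245, 290 and 291 CPM to 4.93, 5.32 and 6.75 CPM. IGFBP6 was low in RA-only day 9 cells too (6.74, 4.70 and 4.11 CPM, adjusted p = 0.77 between the day 9 groups), whereas IGFBP5 was still at 2430, 2336 and 1947 CPM there. Of 16 tested members, 12 fell and 0 rose, against 26.7% and 25.1% of all tested genes. The count of rises was 0 with edgeR at an unadjusted p below 0.05 and with DESeq2 too. With only the 2 groups in the fit it was 1, beside 13 falls. Imprinted genes as a class did not follow: of 19 tested, 6 fell (31.6%), 2 rose (10.5%) and 11 were not called. The share of falls was near that of all tested genes (26.7%). DLK1, a paternally expressed Notch-family ligand, fell from 26.6, 24.0 and 38.2 CPM to 7.08, 7.93 and 7.44 CPM, against 180, 166 and 130 CPM in RA-only day 9 cells. PLAGL1, a growth-suppressing zinc finger gene, rose from 6.84, 4.99 and 6.80 CPM to 38.5, 30.8 and 40.1 CPM.

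**Figure D3:**
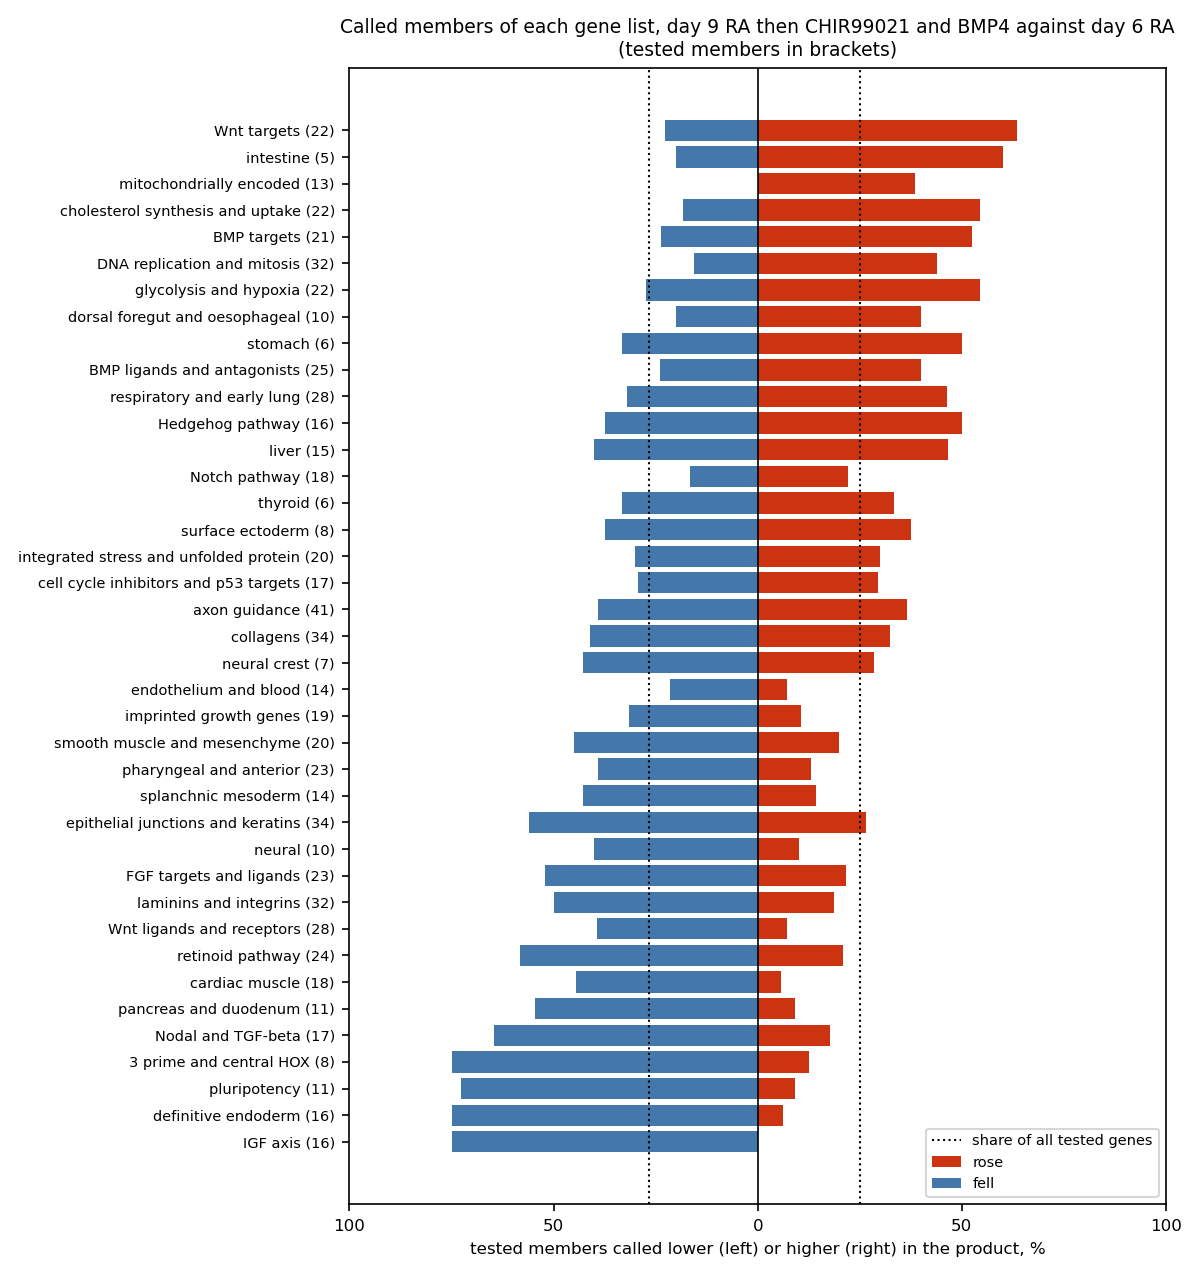
Share of tested members called higher (right) or lower (left) in the product than in the starting cells, for 39 gene lists, with the shares of all tested genes (25.1% higher, 26.7% lower) as dotted lines and the number tested in brackets. Wnt targets, with 14 of 22 higher, stand at the top, and the IGF axis, with 12 of 16 lower and 0 higher, at the bottom.

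Markers of other foregut fates moved in both directions. On the dorsal, oesophageal side, SOX2 rose from 41.4, 32.0 and 28 CPM to 155, 146 and 158 CPM (log2 fold change 2.17 ± 0.34, adjusted p = 0.000154), while RA-only day 9 cells had 26.6, 13.5 and 4.56 CPM. TP63, the factor of basal epithelial cells, rose from 0.883, 0.981 and 0.708 CPM to 10.7, 11.7 and 12.5 CPM. The keratins of the list did not go with them: KRT7 fell from 175, 223 and 201 CPM to 11.8, 12 and 10.9 CPM, KRT15 fell from 1.88, 2.78 and 2.41 CPM to 0.239, 0.703 and 0.276 CPM, and KRT5 and KRT13 had 0 reads in both groups. The list counted 4 rises and 2 falls among 10 tested genes.

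In the thyroid list NKX2-1 was joined by FOXE1, a forkhead factor of thyroid and pharyngeal endoderm. FOXE1 rose from 0.552, 0.327 and 0.708 CPM to 27.1, 31.1 and 36.2 CPM, but RA-only day 9 libraries ranged from 3.67 to 40.7 CPM and the difference from the product was not called (adjusted p = 0.21, but 0.00407 without replicate 1 of the RA-only day 9 cells). The thyroid differentiation genes TSHR and SLC5A5 had 0 reads in the product. PAX8 had 11 counts over the starting libraries and 1 over the product. HHEX, a factor of ventral foregut, liver and thyroid, was lower, with 29.9, 34.3 and 32.8 CPM and then 14.3, 18.4 and 16.4 CPM (adjusted p = 0.0129, and 0.0608 without replicate 1 of the product), against 197, 277 and 260 CPM in RA-only day 9 cells. Among pharyngeal genes 9 of 23 fell and 3 rose. TBX1, the pharyngeal T-box factor, fell from 3.20, 2.04 and 5.66 CPM to 0.287, 0 and 0.276 CPM, and SOX3 from 26.4, 31.6 and 27.6 CPM to 1.24, 1.31 and 0.551 CPM. PAX1, of the pharyngeal pouches, rose from 0, 0.245 and 0.425 CPM to 6.5, 7.53 and 7.03 CPM, and DACH1, a co-factor in the same network, by 2.34 on the log2 scale.

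Hepatic genes moved in both directions, and most pancreatic genes tested fell. APOA2, a liver apolipoprotein, fell from 188, 231 and 206 CPM to 3.44, 2.81 and 3.03 CPM, and TTR, the thyroid hormone carrier, from 131, 172 and 133 CPM to 27.8, 42.6 and 29.5 CPM. AFP, the fetal serum protein, rose from 10.7, 6.78 and 3.68 CPM to 26.9, 31.4 and 29.4 CPM (adjusted p = 0.00535, and 0.0714 with limma on log2(TPM + 0.1)). HNF4A, the main hepatocyte regulator, had 27.6, 29.1 and 17.3 CPM and then 14.1, 16.4 and 18.3 CPM, groups that overlap. Its call (adjusted p = 0.0238) is lost without replicate 1 or 2 of the starting cells or of the product (adjusted p = 0.053 to 0.118). Of 15 tested liver genes 7 rose (46.7%) and 6 fell (40.0%), against 25.1% and 26.7% of all tested genes. The list's summed level was 621 to 739 CPM in the starting cells and 212 to 253 CPM in the product.

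ONECUT2, a factor of liver and pancreas progenitors, fell from 153, 161 and 194 CPM to 6.41, 4.32 and 10.1 CPM, while RA-only day 9 cells spread from 195 to 855 CPM. MNX1, needed for the dorsal pancreas, fell from 46.9, 41.9 and 29.3 CPM to 6.98, 4.82 and 4.55 CPM. PDX1, the pancreatic and duodenal master factor, had 0.331, 0.409 and 0 CPM and then 0.526, 1.31 and 1.93 CPM (adjusted p = 0.231, and 0.0469 with DESeq2), against 20.9, 29.0 and 58.8 CPM in RA-only day 9 cells. CDX2, the intestinal counterpart, rose from 0.441, 0.654 and 0.708 CPM to 2.73, 4.42 and 2.89 CPM, and was higher still without the agents, at 19.9, 30.3 and 59.3 CPM. For PDX1 and CDX2 the product thus lay between the starting cells and the RA-only day 9 cells, nearer to the starting cells. The pancreas and duodenum list counted 6 falls (54.5%) and 1 rise (9.1%) among 11 tested genes, against 26.7% and 25.1% of all tested genes.

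The general endoderm factors declined. GATA6 went from 186, 221 and 185 CPM to 68.2, 75.9 and 70.7 CPM, and GATA4, its relative, from 202, 226 and 184 CPM to 29.2, 32.8 and 35.1 CPM. FOXA1, a forkhead factor that works beside FOXA2, fell by 0.52 on the log2 scale. FOXA2 was called at an adjusted p of 0.0327 (log2 fold change -0.45), but the call is lost when any single library of the 6 is left out, with DESeq2 (adjusted p = 0.0576) and under 3 further settings. CDH1, the epithelial cadherin, rose from 296, 321 and 274 CPM to 510, 559 and 535 CPM, with 515, 661 and 630 CPM in RA-only day 9 cells. Of 16 tested definitive endoderm genes 12 fell (75.0%) and 1 rose (6.2%), against 26.7% and 25.1% of all tested genes. Pluripotency genes showed a like count, 8 falls (72.7%) and 1 rise (9.1%) among 11, the rise being SOX2. POU5F1, the core pluripotency factor, had 0.883, 3.27 and 2.41 CPM in the starting cells and 0 reads in the product, at least 29.1-fold lower with the product set to 3 counts over the group.

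Markers of heart muscle separated the product from the same cells without the agents. MYH6, the atrial myosin heavy chain, stood at 0.552, 0.245 and 1.42 CPM in the starting cells and at 1.34, 0.301 and 0 CPM in the product (adjusted p = 0.813), while RA-only day 9 cells had 905, 566 and 699 CPM. MYL7, the atrial light chain, was already present on day 6 at 28, 30.7 and 29.7 CPM and fell to 4.59, 2.41 and 3.31 CPM, against 568, 473 and 619 CPM without the agents. TTN, the giant sarcomere protein, fell from 288, 444 and 398 CPM to 4.97, 7.73 and 6.62 CPM (log2 fold change -5.93 ± 0.37, adjusted p = 2.13e-08). Over all tested genes, 26.7% fell and 25.1% rose from start to product, 28.5% rose without the agents and 32.3% were lower at day 9 with them. Among 18 tested cardiac genes 8 fell and 1 rose in the product against the start, 16 rose without the agents, and 17 were lower in the product than in RA-only day 9 cells. The rise, TNNT2, was small (2.76, 2.13 and 2.55 CPM to 3.40, 4.72 and 6.06 CPM, adjusted p = 0.0334), and the call is lost without any 1 of the 3 starting libraries or without replicate 2 or 3 of the product (adjusted p = 0.0518 to 0.135).

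Among smooth muscle and mesenchyme genes 9 of 20 fell and 4 rose, and among splanchnic mesoderm genes 6 of 14 fell and 2 rose. COL1A1, the main fibrillar collagen, stood at 154, 217 and 258 CPM on day 6, 1303, 1880 and 1637 CPM in RA-only day 9 cells and 92.3, 109 and 99.2 CPM in the product. MYOCD, the smooth muscle co-activator, had 2.87, 2.78 and 4.67 CPM, then 177, 173 and 206 CPM without the agents and 1.10, 0.904 and 0.827 CPM with them. TCF21, OSR1 and FGF10, genes of the mesoderm around the lung and gut, all fell, TCF21 from 9.49, 12.2 and 6.80 CPM to 0.0478, 0.1 and 0.138 CPM. TBX4, TBX5 and WNT2, which mark lung mesenchyme, had 0, 13 and 0 counts over the 3 product libraries. The rises were DCN, a matrix proteoglycan, from 0.441, 0.163 and 0.142 CPM to 6.93, 5.82 and 6.62 CPM, and COL6A3, PRRX1 and ACTA2 in the mesenchyme list and FOXF2 and HAND1 in the splanchnic list. ACTA2, smooth muscle actin, had 198 counts over the starting libraries, 17149 in RA-only day 9 cells and 670 in the product. FOXF2, a forkhead factor of gut mesenchyme, had 10 and then 80 counts in the product, and HAND1, a factor of lateral mesoderm, 2 and then 75. ACTA2, FOXF2 and HAND1 were named after their values were seen. The summed level of the smooth muscle and mesenchyme list was 1479 to 1670 CPM at the start, 7550 to 9249 CPM in RA-only day 9 cells and 747 to 791 CPM in the product, and its part in the differences at day 9 was not tested.

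Vessel, nerve and crest markers moved in both directions. VWF, the clotting factor made by endothelium, fell from 82.2, 122 and 124 CPM to 0.956, 0.703 and 0.551 CPM, and TEK, the angiopoietin receptor, from 28.9, 28 and 30.6 CPM to 5.55, 5.82 and 4.55 CPM. PECAM1, the standard endothelial marker, was spread over 3.92 to 10.5 CPM and 4.02 to 7.36 CPM and was not called (adjusted p = 0.737). In the neural list, SOX11 fell from 857, 879 and 817 CPM to 263, 282 and 270 CPM and DCX from 46.6, 49.7 and 44.3 CPM to 15.3, 13.5 and 16.0 CPM, and SOX1, NEUROG1, NEUROG2, NEUROD1 and OLIG2 had 0 reads in the product. Of the 10 neural, 7 neural crest and 14 endothelial and blood genes tested, 4, 3 and 3 fell and 1, 2 and 1 rose. Over all tested genes 26.7% fell and 25.1% rose. In the endothelial and blood list 21.4% fell, 7.1% rose and 10 genes were not called, and VWF is not one of its members. The neural rise was POU3F2, a POU-domain factor, with 0.110, 0 and 0 CPM and then 2.49, 2.01 and 2.07 CPM, a ratio of 64.7 with a 95% counting interval of 11.3 to 2585. The crest rises were PAX7, a paired-box factor named after its values were seen, and ERBB3, a neuregulin receptor that epithelia also express. ERBB3 went from 88.1, 90.1 and 83.0 CPM to 202, 195 and 200 CPM, and the summed level of the crest list from 122 to 129 CPM to 210 to 220 CPM. ERBB3 had the most counts of that list in both groups (2486 and 7607, unscaled), so the sum weighs it above the other members. The median log2 fold change of the crest list was -0.99. RUNX1, a factor of blood formation, rose from 1.21, 0.490 and 0.849 CPM to 1.39, 2.51 and 2.62 CPM (adjusted p = 0.0152). The RUNX1 call is lost without replicate 2 of the starting cells (adjusted p = 0.12), without replicate 2 of the product (adjusted p = 0.0555), and with limma on log2(TPM + 1) (adjusted p = 0.0755).

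**Figure D4:**
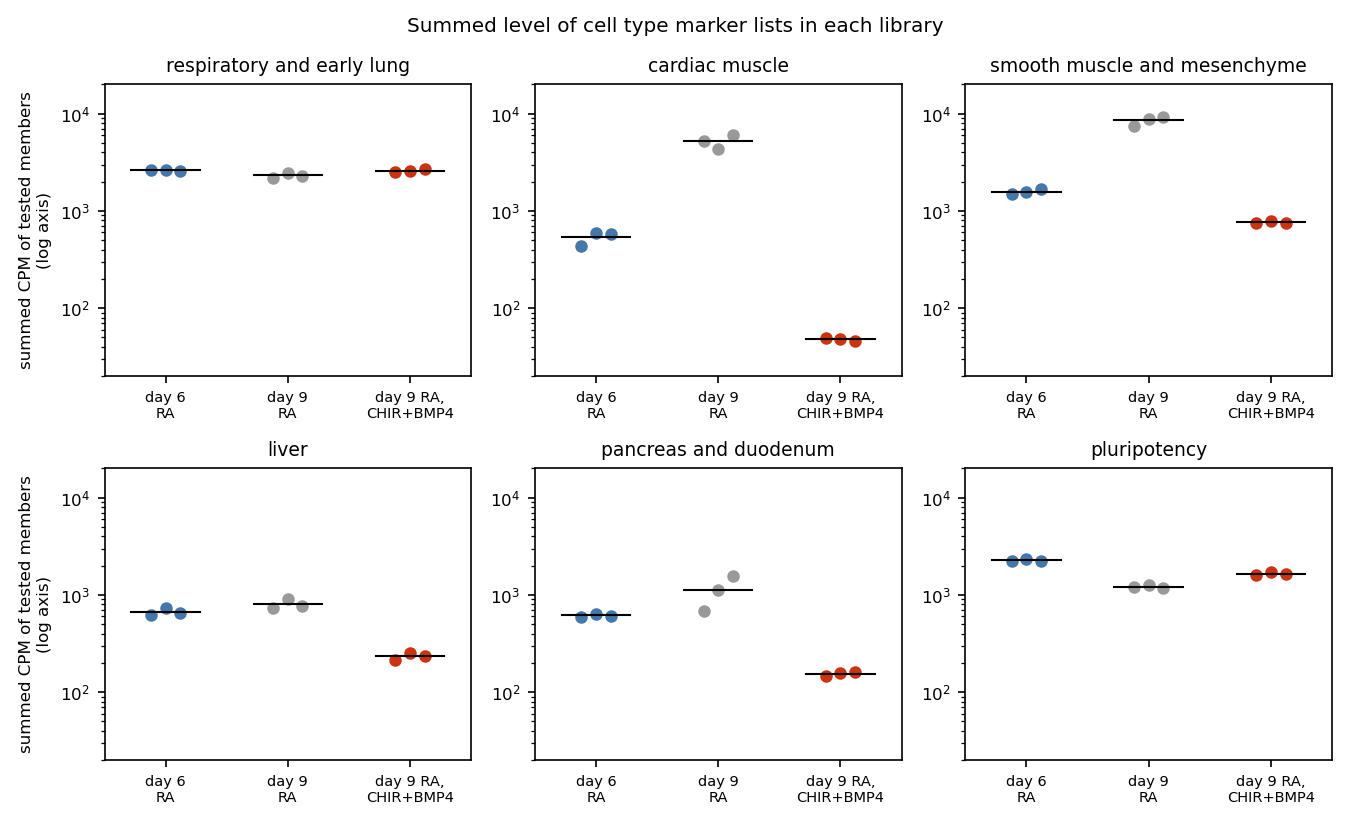
Summed CPM of the tested members of 6 marker lists in each library (points) with the group mean (bar), on a log axis common to all panels. Cardiac muscle sums are 46.0 to 49.6 CPM in the product against 431 to 596 CPM in the starting cells and 4355 to 6058 CPM in the RA-only day 9 cells. In the starting cells TTN had the most counts of that list (10860, unscaled), followed by NPPB (2075), while MYH6 had 18 and MYH7 had 3.

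Of 32 tested genes of replication and mitosis, 14 rose, 5 fell and 13 were not called over 72 h with the agents, none by 2-fold, with a median log2 fold change of 0.18. MCM2, part of the replicative helicase, stood at 214, 213 and 245 CPM on day 6, 109, 93.6 and 92.6 CPM in RA-only day 9 cells and 331, 323 and 325 CPM in the product. CDT1, which loads the helicase, followed with 32.0, 38.6 and 43.2 CPM, 22.5, 19.3 and 25.2 CPM and 74.3, 71.1 and 68.5 CPM. TYMS, the thymidylate synthase, rose by 0.86 on the log2 scale over the starting cells. The proliferation marker MKI67 did not: it was called slightly lower (424, 413 and 457 CPM, then 386, 371 and 391 CPM; log2 fold change -0.17, adjusted p = 0.0334), a call lost without any library of the 6 other than replicate 2 of the starting cells (adjusted p = 0.0514 to 0.153). Without the agents 0 of the 32 rose (0 in edgeR at an unadjusted p below 0.05 and 0 with DESeq2) and 24 fell. Over all tested genes 28.5% rose and 30.3% fell without the agents, and 25.1% rose and 26.7% fell with them. The cyclin-dependent kinase inhibitor CDKN2B, which TGF-β induces, fell from 18.6, 15 and 18.8 CPM to 1.86, 1.81 and 2.48 CPM in the product but stood at 258, 181 and 85.7 CPM in RA-only day 9 cells.

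Most tested genes of the Nodal and TGF-β branch fell. LEFTY2, a feedback inhibitor of Nodal, fell from 5.08, 5.89 and 6.65 CPM to 0.143, 0.1 and 0.413 CPM, CER1, a secreted antagonist of anterior endoderm, from 10.04, 4.99 and 6.23 CPM to 0.574, 1.71 and 2.07 CPM, and CRIPTO, the Nodal co-receptor, by 2.14 on the log2 scale. PMEPA1, a TGF-β feedback gene, rose instead, by 1.12. Of 17 tested members 11 fell and 3 rose, and against RA-only day 9 cells 15 were lower and 0 higher (0 in edgeR at an unadjusted p below 0.05 and 0 with DESeq2), again alongside the cardiac and mesenchymal sums given above. The shares of all tested genes were 26.7% and 25.1% against the start, and 32.3% and 32.1% against RA-only day 9 cells.

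FGF pathway genes were lower more often than higher, with 12 falls (52.2%) and 5 rises (21.7%) among 23. Over all tested genes 26.7% fell and 25.1% rose. DUSP4, a phosphatase induced by FGF and ERK, fell from 199, 201 and 165 CPM to 51.7, 44.6 and 47.3 CPM, and the ligand FGF10, which draws out the lung bud from the mesenchyme, from 5.30, 8.17 and 8.35 CPM to 1.63, 2.21 and 0.689 CPM. FGFR3, a receptor, rose from 20.1, 24.2 and 27.9 CPM to 68.8, 73.0 and 76.1 CPM. Notch genes were mostly not called, 11 of 18, with 16.7% lower and 22.2% higher. Among all 15531 tested genes 7492 were not called. HES1, the main Notch effector, fell from 114, 117 and 102 CPM to 48.7, 41.5 and 42.0 CPM, and DLL1, a ligand, rose from 25.4, 23.7 and 19.96 CPM to 37.4, 39.6 and 43.7 CPM.

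The cell surface and matrix changed more downward than upward. FN1, fibronectin, ranked 20 by TPM in the starting cells and 125 in the product, and fell from 14916, 16016 and 15273 CPM to 3820, 3636 and 3522 CPM, against 25905, 35872 and 31926 CPM in RA-only day 9 cells. TNC, tenascin C, fell from 140, 150 and 180 CPM to 12.9, 17.4 and 14.3 CPM. Among laminins, integrins and other basement membrane genes 16 of 32 fell and 6 rose, among collagens 14 of 34 fell and 11 rose, and among junction proteins and keratins 19 of 34 fell and 9 rose. Over all tested genes 26.7% fell and 25.1% rose, and the collagens were above both shares (41.2% and 32.4%). KRT8 and KRT18, the keratins of simple epithelia, fell from 4814, 5564 and 5591 CPM to 2289, 2333 and 2062 CPM and from 2646, 3105 and 3020 CPM to 789, 807 and 727 CPM. CLDN1, a tight junction protein, rose from 1.43, 1.88 and 0.708 CPM to 4.88, 4.92 and 4.69 CPM, and COL27A1, a fibrillar collagen of cartilage, from 54.4, 57.1 and 58.2 CPM to 206, 194 and 232 CPM.

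Guidance genes were split evenly, with 15 rises (36.6%) and 16 falls (39.0%) among 41 tested, against 25.1% and 26.7% of all tested genes. Some of the changes were large. SEMA3C and SEMA3D, secreted semaphorins, rose from 14.6, 12.2 and 10.2 CPM to 145, 124 and 155 CPM and from 6.62, 5.15 and 6.23 CPM to 100, 118 and 127 CPM. Both were higher in RA-only day 9 cells than on day 6 too, at 86.0, 105 and 103 CPM and at 72.2, 71.1 and 44.9 CPM. SEMA6D, a transmembrane semaphorin, fell from 91.2, 89.6 and 92.4 CPM to 4.59, 5.12 and 3.45 CPM, and DCC, the netrin receptor, from 10.7, 12 and 9.63 CPM to 0.765, 1 and 1.10 CPM.

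Metabolic lists moved in parts. In the glycolysis and hypoxia list 12 of 22 genes rose (54.5%) and 6 fell (27.3%), where 25.1% and 26.7% of all tested genes did. VEGFA, the vascular growth factor, stood at 1985, 1814 and 1673 CPM on day 6, at 162, 171 and 194 CPM in RA-only day 9 cells and at 387, 300 and 373 CPM in the product. ADM, adrenomedullin, fell from 145, 183 and 128 CPM to 10.7, 11 and 8.96 CPM and HK2, hexokinase 2, from 233, 246 and 259 CPM to 52.6, 51.9 and 44.8 CPM. Of 22 genes of cholesterol synthesis and uptake 12 rose (54.5%) and 4 fell (18.2%). ABCA1, which exports cholesterol, fell from 369, 397 and 383 CPM to 72.8, 84.2 and 71.5 CPM. Of 13 mitochondrially encoded genes 5 rose (38.5%), none by 2-fold, and 0 fell (0 in edgeR at an unadjusted p below 0.05 and 0 with DESeq2). With only the 2 groups in the fit 1 of them fell.

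Among the 12 largest rises and 12 largest falls of the whole table were genes outside these lists. ZNF503, a zinc finger repressor, rose from 2.21, 2.62 and 5.24 CPM to 96.6, 85.0 and 93.0 CPM (log2 fold change 4.85 ± 0.19, adjusted p = 1.66e-14), with 9.14, 6.37 and 7.89 CPM in RA-only day 9 cells. POU4F1, a POU-domain factor of sensory neurons, rose from 0.221, 0.245 and 0 CPM to 6.31, 6.33 and 5.38 CPM, and TMEM132C, a membrane protein with 1 count over the starting libraries, reached 6.70, 7.13 and 5.38 CPM, a ratio of 186 with a 95% counting interval of 33.1 to 7375. The falls included PRLHR, a neuropeptide receptor with 13.6, 12 and 11.2 CPM in the starting cells and 0 reads in both day 9 groups. With the product set to 3 counts it was at least 156-fold lower (adjusted p = 1.75e-09, and 0.11 with DESeq2).

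CGA, the common subunit of glycoprotein hormones, went from 48.9, 43.8 and 69.4 CPM to 0.239, 0.201 and 0.413 CPM. In RA-only day 9 cells it kept 32.1, 56.4 and 50.3 CPM, which overlaps the starting cells. The cause of the difference was not tested. TNFSF15, a TNF-family cytokine, fell in both day 9 groups, from 188, 198 and 224 CPM to 13.8, 18.8 and 19.2 CPM without and 1.53, 2.51 and 1.65 CPM with the agents. ITLN2, an intelectin, fell from 80.0, 97.8 and 112 CPM to 0.478, 1.31 and 0.413 CPM. TRPM2, a calcium channel, and EHF, an epithelial ETS factor, fell by 6.65 and 6.62 on the log2 scale and were not called between the day 9 groups (adjusted p = 0.33 and 0.40). MYO3B and CD22 completed the list with TCF21, VWF, HOXB1 and CYP26A1.

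The same 72 h of CHIR99021 and BMP4 was also given to cells that had not seen RA. Over that time 8632 genes (55.6%) were called in those cells. The difference between the 2 changes was tested as an interaction and called 5776 genes (37.2%), 2654 (17.1%) with a change that was more positive after RA and 3122 (20.1%) with one more negative. This split was 1834 and 3814 with limma on log2(TPM + 1). NKX2-1 rose in both, to 10.7 CPM on average without RA and 79.3 CPM with it. SHH rose by 4.70 on the log2 scale after RA and had a change of -0.15 (adjusted p = 0.837) without, ending at 25.4 CPM, and the changes differed by 4.85 ± 0.76 (adjusted p = 0.000289). SOX2 rose by 2.17 after RA and fell by 2.00 without. SP5 rose by 4.80 after RA and had a change of -0.74 (adjusted p = 0.192) without, from a level of 4.36 CPM in untreated day 6 cells. AXIN2 ended at 56.4 CPM after RA and at 58.8 CPM without.

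IGF2 and the RA-degrading enzymes differed the other way, and their levels at the start were higher after RA. IGF2 was at 21.0 CPM in untreated day 6 cells and 15.2 CPM after CHIR99021 and BMP4 alone, a change of -0.46 (adjusted p = 0.184), against -6.41 after RA. CYP26A1 rose without RA, from 68.2 to 122 CPM on average, and fell to 0.711 CPM after RA, a difference in change of -9.73 ± 0.37 (adjusted p = 5.61e-11). IHH had a change of 0.57 (adjusted p = 0.434) without RA and -2.59 after it. MSX1, a BMP target of mesenchyme and ectoderm, rose by 2.96 without RA, to 12.3 CPM, and was not called after RA.

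**Figure D5:**
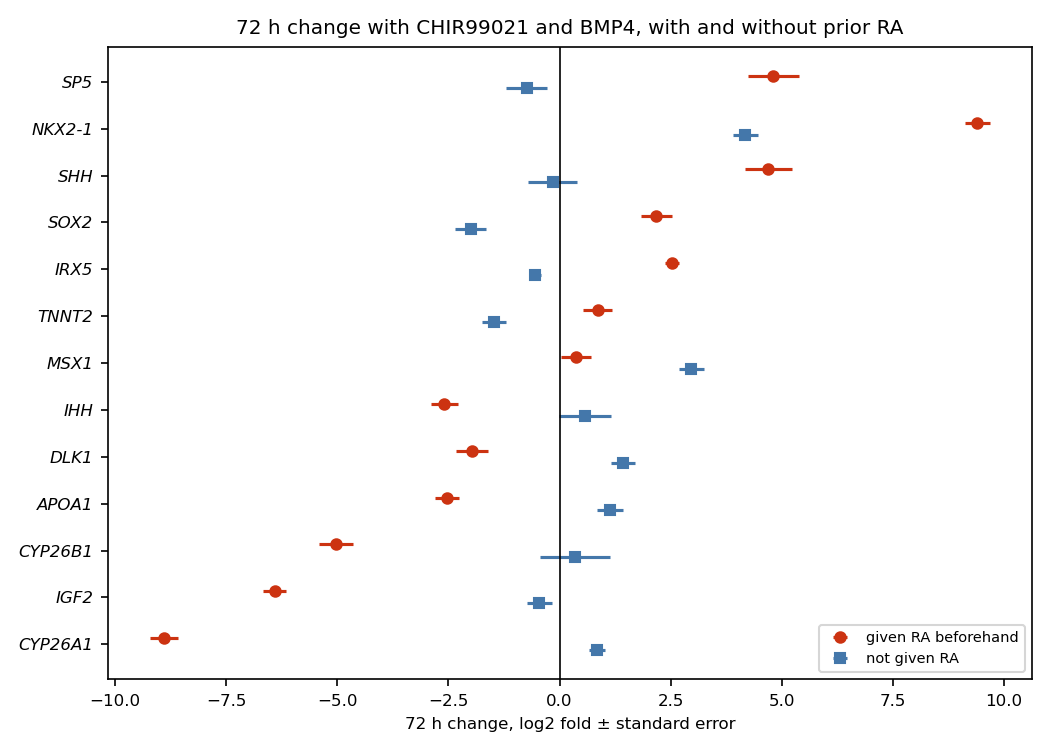
Change over 72 h of CHIR99021 and BMP4 in cells given RA beforehand (circles) and in cells not given it (squares), as log2 fold change with its standard error. Shown are the 13 fixed genes with reads in every group compared whose changes differed by more than 2 on the log2 scale and were called. SHH, SP5 and SOX2 rise after RA and not without it, and CYP26A1, CYP26B1 and IGF2 fall after RA and not without it, where IGF2 and CYP26B1 were not called and CYP26A1 rose.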

How the data were processed

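The deposited table of gene counts from the authors covers 35025 genes in 18 libraries, 6 groups of 3. A second table holds TPM values that the authors deposited. STAR 2.7.9 and the build GRCh38 are named in the submitters' processing notes. Which counter, annotation and strand setting produced the table is not given in the sources used here: overlapping and antisense genes cannot be told apart. Counts of 36 genes without a symbol (0.00102% of all) were left out. Counts were scaled with edgeR 4.0.16 (R 4.3.3, TMM factors), genes were kept by a minimum count of 10, and all 18 libraries were fitted together with the robust quasi-likelihood test. An adjusted p (Benjamini-Hochberg) below 0.05 over all 15531 tested genes made a call. Alternatives were other scalings, filters, DESeq2 1.42.0, limma 3.58.1 on log2(TPM + 1) and log2(TPM + 0.1), a replicate block, each library left out, and a fit of 12 libraries chosen after seeing the data.

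Genes were named by rule: the 12 largest rises and 12 largest falls (5 CPM or more, groups not overlapping), 68 fixed genes, up to 4 from each of 39 lists (2 CPM or more), and 4 for each pattern over the day 9 groups (20 CPM or more). Lists share members. The members, the lists and the rule were chosen with earlier results of these data known. Floors of 3 counts and 95% intervals cover counting error only. Some named genes are not reported here.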

Additional observations from a re-analysis of the deposited data

Results flagged for a closer look

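The 72 h change with CHIR99021 and BMP4 was compared between cells given RA beforehand and cells not given it, by the interaction term of the edgeR fit. Among fixed genes with reads in every group of this comparison, 13 were called and differed by more than 2 on the log2 scale. Called genes without reads in a group, among them HOXB1, SFTA3 and POU5F1, are left out of this count. Their calls depend on the setting. HOXB1 lost it with only the groups compared in the fit (adjusted p = 0.1). SFTA3 lost it without any 1 of the starting libraries or without replicate 1 or 2 of the untreated day 6 cells (0.0529 to 0.182). POU5F1 lost it with limma on log2(TPM + 1) (0.701) and without replicate 1 of the product (0.0554). The change was more negative after RA for CYP26A1 (-9.73), IGF2 (-5.95), CYP26B1 (-5.38), APOA1 (-3.67), DLK1 (-3.39), IHH (-3.16) and MSX1 (-2.59). It was more positive for TNNT2 (2.34), IRX5 (3.08), SOX2 (4.18), SHH (4.85), NKX2-1 (5.22) and SP5 (5.55). The value for NKX2-1 rests on 3 counts in the starting cells and depends on the fit's prior count. Each value is a difference of log2 fold changes, and adjusted p-values ran from 5.61e-11 for CYP26A1 to 0.00176 for IHH.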

How the results depend on the processing

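The labels do not say whether replicate numbers pair the libraries, and the correlations given here cannot settle it. Same-numbered starting and product libraries had correlations of 0.029, 0.007 and 0.007 between their deviations from the group means. Between RA-only day 9 and product libraries they were 0.024, 0.046 and 0.039 for the same number and -0.034 to -0.008 for different numbers. With the replicate as a block 8127 genes were called between product and start, against 8039, and 5900 for the difference between cells with and without RA, against 5776. Among the named genes the block made PDX1 a call (adjusted p = 0.0137) and ended that of TNNT2 (0.0523). Leaving out 1 library at a time gave 6927 to 7460 calls between product and start.

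The count between product and start stayed within 1.5 times the main one under every alternative run, from 6927 without replicate 1 of the product to 9029 with only the 2 groups in the fit. With upper-quartile scaling the median log2 change of all genes was -0.11 over 72 h without the agents and 0.104 for the agents at day 9. With limma on log2(TPM + 1) that median was -0.111 for the difference with RA, and rises were 32.5% of its calls against 45.9%. With only the 2 groups in the fit the median of the liver list turned to 0.13, of the Hedgehog list to -0.008 and of surface ectoderm to -0.451. Over the named results of the 4 comparisons, 9838 values kept direction and side of the threshold, 261 lost the call, 116 gained it and 1 turned direction: CDX2, for the difference with RA, from -2.35 (adjusted p = 0.547) to 1.092 with limma on log2(TPM + 1) (adjusted p = 0.0284), and the cause was not tested. Depth limits genes near 3 counts, where a fold is a bound or a wide interval.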
